A study of Danio rerio with 4 samples.

Results

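Edge peaks, as the term is used here, are CTCF peaks with sequence free of any called peak on one side and another peak close by on the other. They were chosen by position from the list of CTCF peaks called in whole zebrafish embryos aged 24 hpf (hours after fertilisation). The centre of an edge peak lay more than 150 kb from the neighbouring centre on one side and 20 kb or less from that on the other. The rule was applied to 22 chromosomes, without chromosomes 4, 18 and 22. It found 884 edge peaks among 32075 peaks there, or 2.76% (exact binomial 95% interval 2.58 to 2.94, counting error only). The whole list holds 37625 peaks. The interval without a peak is called a gap, and the peak within 20 kb is called the near neighbour.

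The zinc fingers of CTCF recognise an asymmetric DNA motif. In vertebrates it halts the cohesin complex as cohesin extrudes chromatin loops, and pairs of bound sites often mark the borders of topologically associating domains. Not every bound site anchors a loop, and a peak list alone does not show which sites do.

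Of the 4 libraries, 2 were ChIP replicates and 2 were input DNA, all from the AB strain, with the genotype labelled ctcf{HPSH}. Each replicate held 2000 whole embryos from separate crosses of ctcf HA/wt fish, so every cell type of the embryo was pooled. The tagged CTCF was precipitated through its HA epitope, and the inputs received no antibody. The authors deposited a list called on the combined ChIP replicates in danRer10 coordinates, with a score per peak whose scale is not stated. No value per replicate and no depth was used, so no spread between embryos can be given and no p-value is printed. An SD below is over chromosomes, and the intervals cover counting error only. Sequence and gene annotation of danRer10 were not used here, so no gene or motif is named at any peak.

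The 884 edge peaks were 432 left borders and 452 right borders of gaps. The distances to the near neighbour had a median of 6.99 kb, with quartiles of 2.16 and 13.3 kb. They ran from 0.335 to 19.98 kb. These distances and the gap lengths chose the members and are given as a description. Just inside the limit of 150 kb lay a pair of peaks on chromosome 9 that frame the same gap of 150.048 kb, at 3708321 to 3708545 (score 481) and 3858373 to 3858590 (score 331). Next came a peak on chromosome 5 at 47231633 to 47231854, with a gap of 150.211 kb and a score of 380. Just outside lay peaks on chromosome 25 (16614745 to 16614965, 149.886 kb, score 274), chromosome 14 (9191288 to 9191507, 149.811 kb, score 315) and chromosome 19 (27920854 to 27921125, 149.685 kb, score 319). At the limit of 20 kb, the farthest near neighbours inside were 19.984 kb away on chromosome 20 (edge peak at 14527185 to 14527411, score 304) and 19.9835 kb away on chromosome 5. The latter distance belongs to edge peaks that are each other's near neighbour, at 56434368 to 56434596 (score 489) and 56454164 to 56454767 (score 777). The closest outside were borders of the same gap on chromosome 6, with neighbours at 20.066 kb (6415523 to 6415743, score 375) and 20.073 kb (6598403 to 6598788, score 467), and a peak on chromosome 11 (17033834 to 17034115, 20.0955 kb, score 555).

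The 22 chromosomes held 1304 gaps of more than 150 kb, which took up 25.2% of their span of 1173 Mb. At least 1 border was an edge peak in 726 of these gaps, with a summed length of 165 Mb, or 14.1% of the span. The 726 gaps had a median length of 202 kb, with quartiles of 171 and 253 kb, and the longest measured 889 kb. Gaps of more than 300 kb numbered 101 among the 726 and 183 among all 1304. Those of more than 500 kb numbered 13 and 22. Lengths were alike whatever the borders. The median was 196 kb where both borders were edge peaks (158 gaps), 202 kb where 1 was (568 gaps) and 196 kb where neither was (578 gaps), and the quartiles of the 3 classes overlapped almost wholly.

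**Figure D1:**
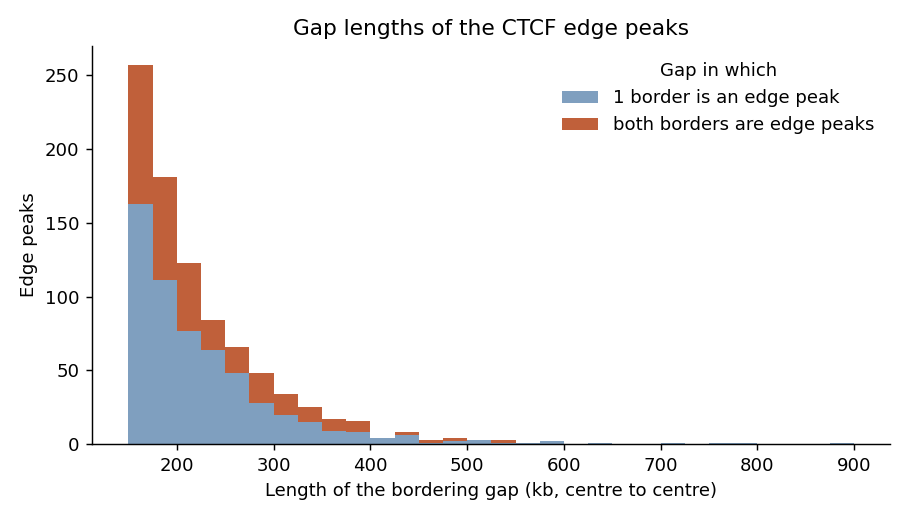
Number of edge peaks (vertical axis) by the length of the gap they border (horizontal axis, kb between peak centres, bins of 25 kb), stacked by whether 1 or both borders of that gap are edge peaks. The counts fall from the limit of 150 kb toward a tail that reaches 889 kb, and gaps with both borders lie along most of that range, up to 549 kb.

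Among the gaps that have an edge peak, the longest lay on chromosome 3 and measured 889 kb. Its right border was the edge peak, at 11518453 to 11519080, with a score of 330, a width of 628 bp and a near neighbour 14.3 kb away. The left border scored 223, and its next peak lay 24.9 kb off. The next was a gap of 795 kb on chromosome 5, whose right border was an edge peak of score 735 at 45727479 to 45727847, with its near neighbour only 0.778 kb off. The left border of that gap had a score of 243 and a further 201 kb without a peak behind it. A gap of 750.2 kb on chromosome 14 ended at an edge peak of score 309 (37387715 to 37387936). One of 723 kb on chromosome 6 ended at an edge peak of score 722 (17308948 to 17309440). In these 4 cases and in a gap of 649 kb on chromosome 7 (edge peak at 29802787 to 29802997, score 341) the edge peak was the right border.

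The gaps ranked 6 to 8 had their edge peak on the left. They were a gap of 593 kb on chromosome 9 (edge peak at 19770444 to 19770810, score 476), one of 586 kb on chromosome 15 (13049267 to 13049637, score 166) and one of 556 kb on chromosome 12 (20512451 to 20512698, score 406). The only one of the 10 longest with edge peaks at both borders lay on chromosome 5 and measured 549 kb, between a peak of score 253 (52401746 to 52402027) and one of score 356 (52950288 to 52950509). The tenth, of 536 kb on chromosome 7, had an edge peak of score 128 on its left (16938442 to 16938841). All 10 lay more than 10 Mb from a chromosome end, the closest at 10.6 Mb. The scores of their edge peaks ran from 128 to 735 and so covered both weak and strong peaks.

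A gap was closed by a close pair of peaks less often than shorter intervals were. Of the 2608 border sides of the 1304 gaps, 884 were edge peaks, or 33.9% (exact binomial 95% interval 32.1 to 35.7). The rest were 1439 borders with the next peak 20 to 150 kb behind, 142 peaks with a gap on both sides, each counted for 2 sides, and 1 border at the outermost peak of a chromosome. The same share, of border sides with a neighbour within 20 kb behind the peak, was 59.9% (59.3 to 60.4) for intervals of up to 20 kb. A peak with both neighbours within 20 kb counts for 2 sides there, so this 95% interval is too narrow. The share was 49.8% behind intervals of 20 to 50 kb, 42.1% behind 50 to 100 kb and 37.2% behind 100 to 150 kb. Beyond 150 kb it fell no further. It was 33.1% (30.5 to 35.7) for gaps of 150 to 200 kb, 35.0% (32.0 to 38.2) for 200 to 300 kb and 34.2% (29.3 to 39.3) for longer ones, and these intervals overlap. The shares for gaps rest on the same distances that the rule used to choose the members, so they are given as a description.

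Peak density moves along with this share, since long intervals lie where peaks are sparse. Within the sequence more than 15 Mb from both chromosome ends, where the mean density was 1.89 peaks per 100 kb against 2.73 over the 22 chromosomes, the decline was smaller. The share went from 47.5% behind intervals of up to 20 kb to 33.9% behind 100 to 150 kb, and gaps gave 29.8%, 33.9% and 30.4% in the 3 length classes. The part of density in the decline was not tested further.

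Borders of a gap did not come as edge peaks in pairs much beyond what their single shares give. Left borders were edge peaks in 33.1% of gaps and right borders in 34.7%, and the product of these shares is 11.5%. Both borders were edge peaks in 158 gaps, or 12.1% (exact binomial 95% interval 10.4 to 14.0), which includes that product. In these 158 gaps the scores of the facing borders were nearly unrelated (Spearman's rho = 0.0303 across 158 gaps of the same pooled list, a description), and they differed by a median of 136.5 score units.

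**Figure D2:**
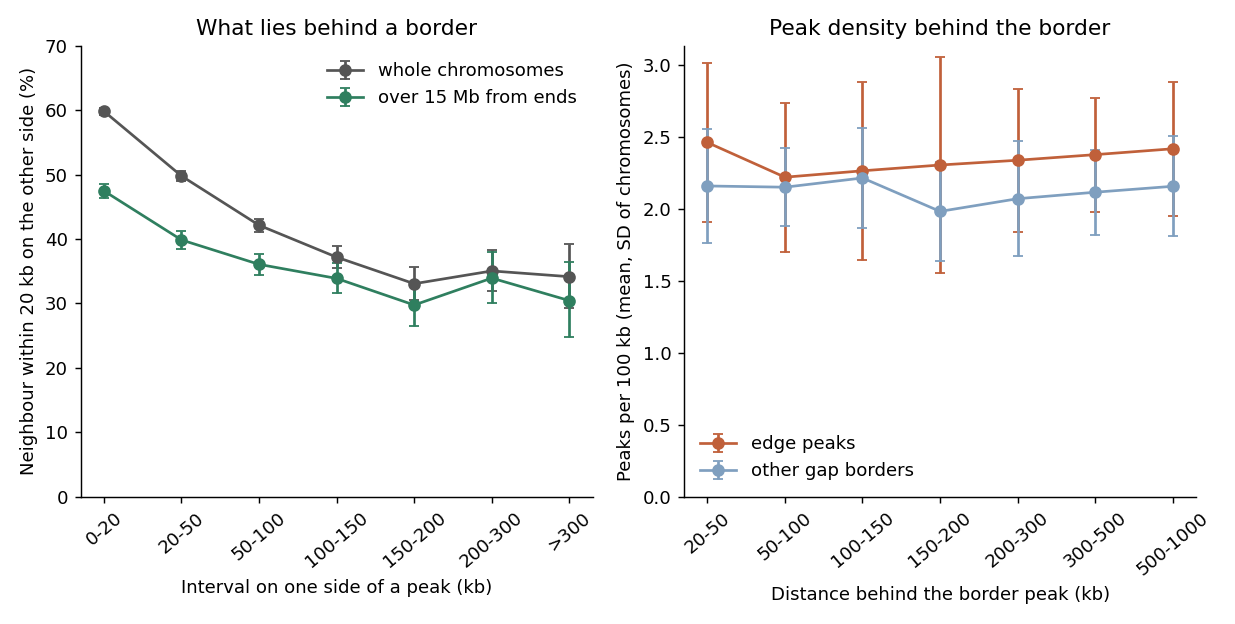
Left, the percentage of border sides with a neighbour within 20 kb behind the peak (vertical axis) by the length of the interval (horizontal axis, kb). It is given for whole chromosomes and for the inner sequence (over 15 Mb from either end), with exact binomial 95% intervals. A peak counts once for each of its sides. Right, the peak density behind edge peaks and behind other gap borders (vertical axis, peaks per 100 kb, mean and SD over 22 chromosomes) by distance from the border peak (horizontal axis, kb). For whole chromosomes the share is 33.1%, 35.0% and 34.2% in the 3 classes of gaps, for the inner sequence 29.8%, 33.9% and 30.4%, and the density behind edge peaks is 2.46 at 20 to 50 kb and between 2.22 and 2.42 farther in.

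Most edge peaks stood at the rim of a very short run of peaks. Counting inward as long as neighbours followed within 20 kb, 526 edge peaks (59.5%) had a run of just 2 peaks, 193 (21.8%) one of 3, 99 (11.2%) one of 4 and 66 (7.47%) one of 5 or more. Another peak within 20 kb behind the near neighbour was thus present for 40.5% of edge peaks (exact binomial 95% interval 37.2 to 43.8). Over all border sides of intervals of up to 20 kb, 59.9% had a neighbour within 20 kb on the other side of the peak. Peaks with both neighbours within 20 kb counted for 2 sides there, so this is not a share of peaks. More than 15 Mb from both ends the 2 values were closer, at 37.9% (33.6 to 42.3) for edge peaks and 47.5% over such border sides. The longest run, of 17 peaks over 54.2 kb, lay on chromosome 10 at 16827393 to 16881896, behind a gap of 170.4 kb and an edge peak of score 512. The interval behind the run had a median of 55.3 kb. In 128 cases (14.5%) it was another gap, a share for which no matching background was computed. Thus 64 runs stood alone between gaps. Of these 64, 32 were pairs in which both peaks were edge peaks, 19 held 3 peaks and 13 held 4 or 5. The near neighbours of the 884 edge peaks were therefore 865 different peaks, and 64 of the edge peaks were near neighbours of each other.

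Over all positions, the density of peaks farther behind the edge lay below the mean of the 22 chromosomes, which includes the dense chromosome ends. The rule fixes the first 20 kb. At 20 to 50 kb behind the edge peak the density was 2.46 ± 0.551 peaks per 100 kb (SD, n = 22 chromosomes), at 100 to 150 kb 2.26 ± 0.620 and at 500 to 1000 kb 2.42 ± 0.467. The mean over the 22 chromosomes was 2.73 per 100 kb. Other gap borders, whose next peak lay 20 to 150 kb behind, had 2.16 ± 0.347 per 100 kb at 500 to 1000 kb.

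From 150 to 1000 kb, a distance that neither rule touches on this side, edge peaks had 2.38 ± 0.410 peaks per 100 kb behind them and other gap borders 2.12 ± 0.295. The density was higher behind edge peaks in 17 of 22 chromosomes, and the difference was smaller than the SD between chromosomes. Edge peaks also lay nearer to the dense chromosome ends than other gap borders did, with 10.4% and 5.70% of them within 5 Mb of an end. Among borders more than 15 Mb from both ends the values were 1.96 ± 0.371 and 1.88 ± 0.312, with the edge peaks higher in 12 of 22 chromosomes. The mean of the sequence that far in was 1.89 peaks per 100 kb, and the density behind these edge peaks was not below it.

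Edge peaks outranked their near neighbours in score about as often as the reverse. Their median score was 355, with quartiles of 267 and 506 and a range of 108 to 2136. The near neighbours, counted once per edge peak, had a median of 346. The edge peak had the higher score in 449 pairs, the lower in 433, and 2 were tied. That is 50.9% of untied pairs, with an exact binomial 95% interval of 47.6 to 54.3 that includes 50%. The 64 edge peaks that were near neighbours of each other entered in both directions, so the pairs are not all independent. Averaged over chromosomes the edge peak outranked its near neighbour in 50.9 ± 6.21% of pairs (SD, n = 22 chromosomes), above 50% on 12. Without those 64 this average was 51.0% (820 edge peaks). The score difference between edge peak and near neighbour was wide, with quartiles of -137 and 161 score units around a median of 4.5. A strong edge peak did not go with a strong near neighbour (Spearman's rho = 0.0562 across 884 pairs, a description).

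The scores stayed level farther inward. The second peak from the gap had a median of 346, the third 355.5, the fourth 357 and the fifth 362.5, at median distances of 6.99, 36.7, 83.4 and 139 kb from the edge peak. Their quartiles all fell between 263 and 507. Scores were also alike across gap lengths. Edge peaks of gaps of 150 to 175 kb had a median score of 368 (257 peaks), and those of gaps of more than 300 kb had 355 (125 peaks). In between, medians were 345, 344 and 361. Spearman's rho of score and gap length was -0.0322 across the 884 edge peaks, which share 1 pooled library pair, and that of width and gap length was -0.00472.

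By distance to the near neighbour the medians differed in either direction. With the near neighbour 0.5 kb or less away, 35 edge peaks had a median score of 295 and their neighbours 365, and the edge peak was higher in 42.9% (exact binomial 95% interval 26.3 to 60.6). At 0.5 to 1 kb the edge peak was higher in 58.1% of 74 pairs (46.1 to 69.5) and at 1 to 2 kb in 57.6% of 99 pairs (47.2 to 67.5), where the medians were 365 for edge peaks and 320 for neighbours. At 5 to 10 kb the medians were 365 and 352 (202 pairs). At 10 to 20 kb it was higher in 48.6% of 327 untied pairs (43.1 to 54.2). Each of these intervals includes 50%.

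Against the remaining peaks of the same chromosome, edge peaks scored slightly lower over all positions. Over all positions the medians were 355 for edge peaks and 369 for the remaining 31191 peaks. An edge peak outranked one of the remaining peaks in 47.6 ± 4.89% of pairs (SD, n = 22 chromosomes), above 50% on 5 chromosomes. Peaks near chromosome ends score higher in this list, and edge peaks were scarce there. More than 15 Mb from both ends, 494 edge peaks had a median of 351 and 9211 remaining peaks 355, and the share was 50.1 ± 8.19%, above 50% on 10 of 22 chromosomes. The SD was larger there, and the part of position in the lower scores was not tested.

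A similar pattern was seen against peaks inside clusters. Peaks with both neighbours within 20 kb numbered 10121 and had a median score of 382, and edge peaks outranked them in 45.9 ± 4.68% of pairs, above 50% on 4 chromosomes. More than 15 Mb from both ends these clustered peaks had a median of 349, and edge peaks outranked them in 50.9 ± 8.22% of pairs. Other gap borders had a median of 345 and peaks with a gap on both sides 366.5. Edge peaks outranked the other gap borders in 51.4 ± 6.44% of pairs.

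**Figure D3:**
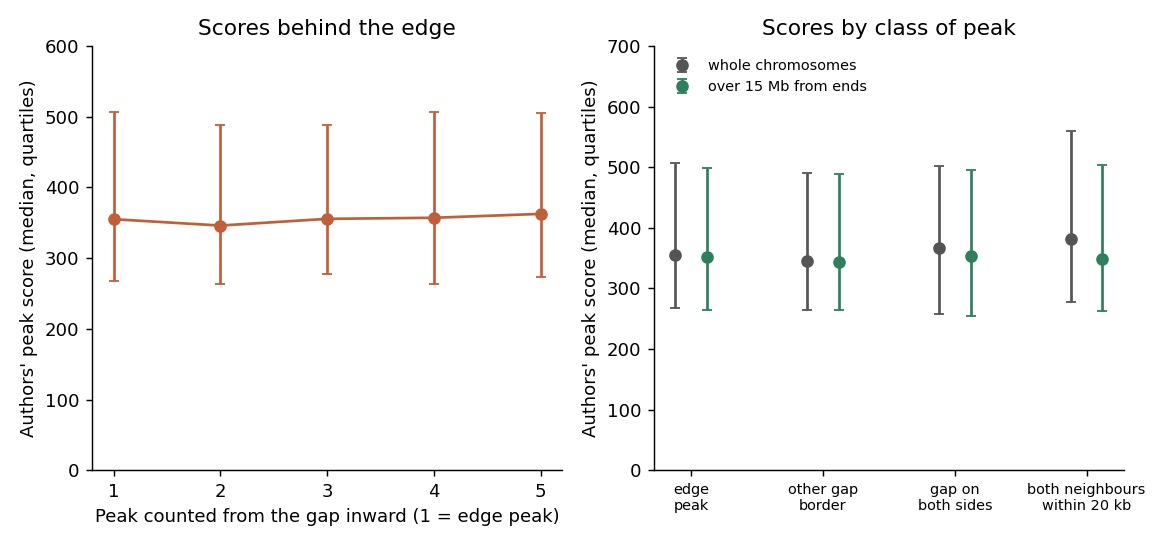
Left, the authors' peak score (vertical axis, median with quartiles) of the 5 peaks counted from the gap inward (horizontal axis), where 1 is the edge peak. Right, the score by class of peak, for whole chromosomes and for peaks more than 15 Mb from both ends. Medians behind the edge stay between 346 and 362.5, and the higher median of clustered peaks, 382, drops to 349 away from the ends.

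Widths told a similar story against the near neighbour and a different one against clusters. Edge peaks had a median width of 257 bp (quartiles 224 and 335, range 200 to 1430) and near neighbours 260 bp. The edge peak was wider in 441 pairs and narrower in 440, with 3 ties. Against the remaining peaks, with a median of 263 bp, edge peaks were wider in 48.1 ± 4.68% of pairs (SD, n = 22 chromosomes), and more than 15 Mb from both ends in 49.8 ± 6.21%.

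Peaks with both neighbours within 20 kb were wider, at a median of 274 bp, and edge peaks outranked them in width in 44.4 ± 5.21% of pairs, above 50% on 4 of 22 chromosomes. More than 15 Mb from both ends the value was 44.4 ± 8.10%, above 50% on 5 chromosomes. Other gap borders were narrower, at 249 bp, and edge peaks outranked those in 53.3 ± 4.27% of pairs, above 50% on 18. In median width, edge peaks thus lay between other gap borders and clustered peaks. Peaks with a gap on both sides had a median of 251.5 bp, with quartiles of 220 and 337 bp. More than 15 Mb from both ends the medians were 249 bp for other gap borders, 256.5 bp for edge peaks and 275 bp for clustered peaks. The rank share against other gap borders was not computed there. Score and width were related among edge peaks (Spearman's rho = 0.476) about as they were among all peaks of the 22 chromosomes (rho = 0.504).

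Within the peak the summit did not lean to either side. It lay past the middle toward the gap in 456 of 884 edge peaks, or 51.6% (exact binomial 95% interval 48.2 to 54.9). Counted from the inner side, its median place was at 50.5% of the width, with quartiles of 43.9% and 57.2%. Left and right borders had median scores of 345.5 and 361 and median widths of 258 and 256 bp.

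The 5 highest-scoring edge peaks show how differently such an edge can be built. The highest, with a score of 2136, lay on chromosome 13 at 35782237 to 35782549 (summit at 35782409), left of a gap of 152 kb. It was 313 bp wide, and its near neighbour 1.28 kb away scored 549. The next, with 2043, lay on chromosome 14 at 33804165 to 33804862, was 698 bp wide and faced a gap of 480.3 kb, with a neighbour of score 595 at 13.9 kb. On chromosome 7 an edge peak of score 1590 (26118061 to 26118537) lay right of a gap of 248 kb, and its neighbour at 8.95 kb scored 308. The last of the 5 were a peak of score 1439 and 890 bp on chromosome 8 (24769484 to 24770373) at a gap of 509 kb and one of score 1424 on chromosome 6 (39661397 to 39661660) at a gap of 154 kb. The latter had a neighbour of score 498 only 0.368 kb away. Each of the 5 outranked its near neighbour, as the choice of high scores favours. Among the 1000 highest-scoring peaks of the 22 chromosomes 18 were edge peaks, or 1.80% (exact binomial 95% interval 1.07 to 2.83), against 2.76% of all peaks. These shares were not matched for position. More than 15 Mb from both ends the upper quartile of the score was 499 for edge peaks and 497 for remaining peaks.

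Edge peaks were scarce toward chromosome ends. Within 5 Mb of an end lay 92 edge peaks, or 10.4% (exact binomial 95% interval 8.47 to 12.6), against 10560, or 32.9%, of all peaks. Averaged over chromosomes the shares were 10.3 ± 7.22% and 33.2 ± 5.52% (SD, n = 22 chromosomes), and edge peaks had the lower share on 22 of 22 chromosomes. No edge peak lay within 5 Mb of an end on 2 chromosomes. The median distance from the nearer end was 16.3 Mb for edge peaks and 8.91 Mb for all peaks. The rule asks for a gap, and peak density near the ends is high, so this position follows in part from the rule itself. Other gap borders were scarcer still within 5 Mb, at 5.70% (4.56 to 7.02).

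The share of edge peaks among peaks grew with distance from the end up to the class of 15 to 20 Mb. It was 0.413% in the outermost 2 Mb (22 of 5332 peaks), 1.34% at 2 to 5 Mb, 1.87% at 5 to 10 Mb, 3.35% at 10 to 15 Mb, 4.83% at 15 to 20 Mb and 5.31% farther in (279 of 5255 peaks). The exact binomial intervals at 15 to 20 Mb (4.22 to 5.50) and farther in (4.72 to 5.95) overlap. Averaged over chromosomes the shares there were 5.11 ± 2.41% (SD, n = 22 chromosomes) and 4.97 ± 2.32% (n = 21). A further rise beyond 20 Mb was thus not shown. Per length of sequence the rise was less steep. Edge peaks numbered 0.250 per Mb in the outermost 2 Mb, 0.530 at 2 to 5 Mb, 0.791 at 10 to 15 Mb, 0.991 at 15 to 20 Mb and 0.941 farther in. Gaps went on rising, from 0.250 per Mb in the outermost 2 Mb to 1.46 at 15 to 20 Mb and 1.59 farther in, while peaks fell from 60.6 to 17.7 per Mb. By the ends used here, the closest edge peak lay on chromosome 9 at 56396087 to 56396372, 485 kb from the end of the last peak. It had a score of 417 and a gap of 161 kb. An edge peak on chromosome 24 (488003 to 488576) lay 0.488 Mb from the first base. Sequence beyond the last peak was not counted, so which of them is closer to a true end was not settled.

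**Figure D4:**
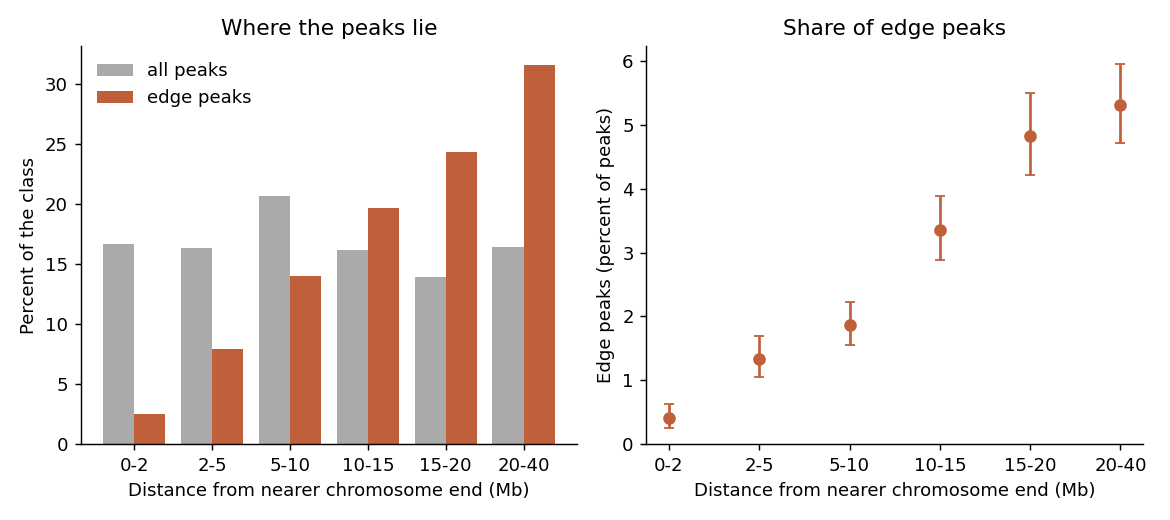
Left, the percentage of all peaks and of edge peaks (vertical axis) in each class of distance from the nearer chromosome end (horizontal axis, Mb). Right, edge peaks as a percentage of the peaks in each class, with exact binomial 95% intervals. Edge peaks make up 0.413% of peaks in the outermost 2 Mb and 5.31% beyond 20 Mb.

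Gaps opened toward the middle of the chromosome about as often as toward its end. The gap lay on the side of the chromosome's midpoint for 444 of 884 edge peaks, or 50.2% (exact binomial 95% interval 46.9 to 53.6). Averaged over chromosomes it was 49.7 ± 5.12% (SD, n = 22 chromosomes), above 50% on 9 and at exactly 50% on 3. Where both borders of a gap were edge peaks, they faced opposite ways unless the gap held the midpoint. Such gaps pull these shares toward 50% by construction. Leaving them aside, 286 of 568 opened toward the midpoint, or 50.4% (exact binomial 95% interval 46.2 to 54.5). With all gaps again, the share was 50.0% in the outermost 2 Mb and 49.1% beyond 20 Mb.

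Chromosomes differed in their share of edge peaks, which went with their peak density. The mean share was 2.76 ± 0.866% of peaks (SD, n = 22 chromosomes). Chromosome 14 had the highest, with 56 of 1269 peaks or 4.41% (exact binomial 95% interval 3.35 to 5.69), and chromosome 5 held the most, 70 of 1615 or 4.33%. The lowest share and the fewest were on chromosome 23, with 19 of 1347 or 1.41% (0.851 to 2.19), and chromosome 16 had the next lowest share, with 26 of 1827 or 1.42%. The share was lower on denser chromosomes (Spearman's rho = -0.806 across 22 chromosomes, a description, since the rule selects on distances).

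How often a gap had an edge peak at its border also varied by chromosome, each with 28 to 100 gaps. No interval or expected spread was computed for these shares. The share of border sides that were edge peaks was 34.5 ± 6.08% (SD, n = 22 chromosomes). Its Spearman's rho with peak density was 0.375 across 22 chromosomes, a description. The share was highest on chromosome 11, with 44 edge peaks for 44 gaps or 50.0% of the border sides, and 45.9% on chromosome 19. The lowest values were 25.4% on chromosome 8, 25.6% on chromosome 9 and 25.7% on chromosome 23. Chromosomes 9 and 11 thus had nearly the same number of edge peaks, 43 and 44, although chromosome 9 held 84 gaps. Median scores of edge peaks also spread by chromosome, from 284 on chromosome 14 (56 edge peaks) to 486 on chromosome 10 (33 edge peaks). All peaks there had medians of 364 and 370. These are the extremes of 22 medians of few peaks each, and no expected spread was computed.

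**Figure D5:**
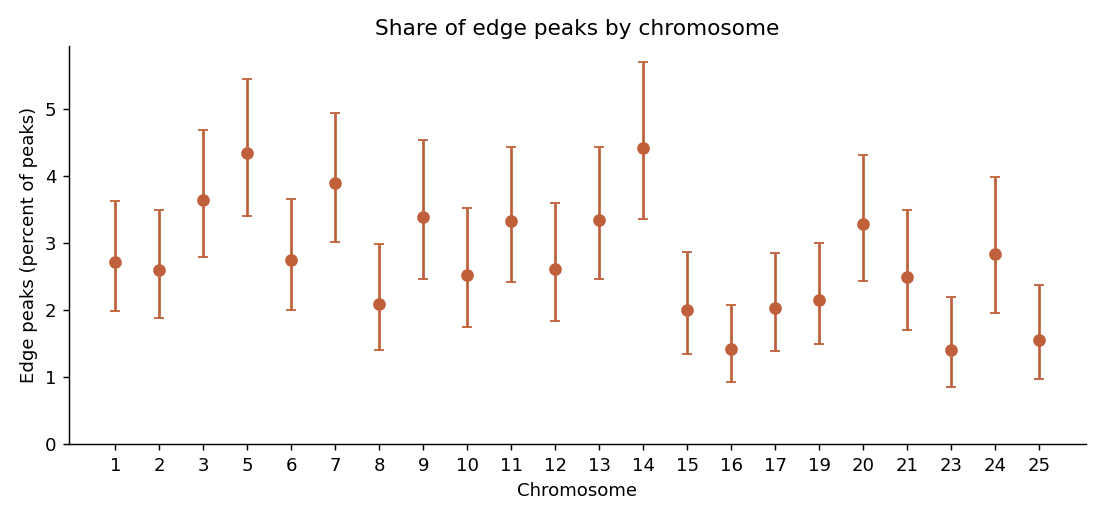
Edge peaks as a percentage of the peaks of each of the 22 chromosomes (vertical axis), with exact binomial 95% intervals for counting error, by chromosome number (horizontal axis). Chromosomes 14 and 5 are highest at 4.41% and 4.33%, and chromosomes 23 and 16 lowest at 1.41% and 1.42%.

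Edge peaks occurred in nearly all windows along the chromosomes, in uneven numbers, and no expected spread was computed. In whole windows of 5 Mb, counted from the first base, the median was 4 edge peaks. Of 225 windows, 9 had none, and all 9 were the first or last whole window of a chromosome. The fullest window, picked after its count was seen, lay on chromosome 5 at 40000001 to 45000000, with 12 edge peaks among only 61 peaks. Next came chromosome 3 at 1 to 5000000, with 10 among 144 peaks although it is a chromosome end, and chromosome 14 at 20000001 to 25000000, with 10 among 80.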

How the data were processed

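CTCF ChIP-seq of zebrafish embryos was represented by 1 list called on combined replicates, per the file headers. According to the submitters' processing notes the build was danRer10. They also list Bowtie2 2.2.5, cutadapt 1.3, Picard 1.45, SAMtools 1.1, MACS2, FastQC 0.9.3, deepTools 3.0.1 and CASAVA, without saying what each did. The sources used here do not state the caller's settings, its threshold or how the input entered. The deposited score is a whole number by the authors on an unstated scale, so it was compared by rank. The signal, p and q fields are 0 throughout and were not used.

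Peaks were placed by their centres. Chromosomes were taken to run from the first base to the end of the last peak, and unknown bases in the assembly were not removed, so a gap means an interval without a called peak. First and last peaks of a chromosome have 1 neighbour and cannot be members. In rank comparisons, the share of pairs in which the edge peak was higher was computed per chromosome, with ties split evenly, and then averaged. Peaks of 1 pooled list are not replicates, and no test was run. The rank shares, the edge peak rule and the count of gaps with edge peaks at both borders were tested on simulated data. The other calculations were not. Members and comparisons were chosen with earlier results of these data known. The regions named are the 10 longest gaps with an edge peak, the 5 highest-scoring edge peaks, the 3 peaks closest to each limit on either side and the chromosomes at the extremes. Other regions and chromosomes, namely the longest run, the edge peak closest to an end, the fullest windows and the chromosomes singled out by border share or median score, were named after their values were seen. Python 3.11.15, numpy 2.4.6, scipy 1.17.1, pandas 2.3.3 and matplotlib 3.10.9 were used.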

Additional observations from a re-analysis of the deposited data

Results flagged for a closer look

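Chromosomes 4, 18 and 22 lay outside the comparisons, and peaks there also met the distance rule. Chromosome 4 had 66 such peaks, or 5.91% of its 1117 peaks, above the highest share among the 22 chromosomes (4.41%), with a median gap of 252 kb and a longest gap of 2048 kb. Chromosome 18 had 19, or 1.06% of 1787 peaks, below the lowest share among the 22 (1.41%), and chromosome 22 had 24, or 1.54% of 1561 peaks. Their median scores were 380.5, 320 and 342.5, against 363, 372 and 372 for all peaks of the same chromosomes.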

How the results depend on the processing

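Of 85 alternative values, 73 stayed within 1.5 times for the edge peak count, within the quartiles for the gap length or within the exact binomial interval of the reported value for the others. Part of the 73 had little room to move. Placing peaks by their summits gave the reported values again, and leaving out 1 chromosome took away at most 70 of the 884 edge peaks. The count went from 884 to 2059 with a far limit of 100 kb, 446 with 200 kb, 556 with a near limit of 10 kb and 1365 with 40 kb, which the wider or narrower limits bring about by construction. The share of gaps with edge peaks at both borders, 12.1%, became 4.91% and 27.5% with near limits of 10 and 40 kb, 5.18% for the highest-scoring 50% of the list and 10.2% after merging peaks less than 500 bp apart. The near limit moves this share by construction, and the product of the single border shares was not computed for these settings. The share within 5 Mb of an end, 10.4%, became 15.7% for the highest-scoring 50% and 14.4% with a far limit of 100 kb. The share of all peaks of the highest-scoring 50% within 5 Mb was not computed, so the 15.7% has no matching background. Ends of 2 and 10 Mb gave 2.49% and 24.4%, against 16.6% and 53.6% of all peaks. The cause of the changes with the score was not tested. Score and width shares against near neighbours stayed between 48.3% and 52.1% under every alternative run. Leaving out each chromosome in turn gave score shares of 50.5% to 51.4% against near neighbours and 47.0% to 48.1% against remaining peaks. The settings more than 5 or 15 Mb from the ends, and gaps with 1 edge peak, were chosen after seeing the data. No paired analysis was possible because the list pools the replicates, and no replicate could be left out. Depth is unknown, so a gap holds no detected site, which does not show that CTCF is absent there.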
